A study of Nothobranchius furzeri with 12 samples.

Results

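The gene foxq1a encodes a forkhead transcription factor, and its transcript was followed through tail fin RNA of Nothobranchius furzeri. This fish, the turquoise killifish, lives in seasonal pools of southeastern Africa, and its tail colour varies with the strain. The gene was taken as the row XM_015956800 of the deposited table, which makes it 1 of 20788 transcript entries. The symbol comes from the RefSeq gene table of the killifish assembly NfurGRZ-RIMD1, where this accession belongs to foxq1a. The gene was picked because its level differed between the groups in this same table, so its own levels and differences are given below as a description and carry no test.

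Forkhead proteins bind DNA through a winged-helix domain, and many of them switch genes on or off during the choice of a cell fate. In mammals FOXQ1 lies in a cluster with FOXF2 and FOXC1. Mouse Foxq1 is needed for normal hair shaft structure and for mucin gene expression in the stomach lining, and human FOXQ1 is studied in carcinoma cells, where it is tied to Wnt and TGF-beta signalling and to the loss of epithelial character. In zebrafish the paralog foxq1b responds to activation of the aryl hydrocarbon receptor.

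RNA was sequenced from 12 libraries in 4 groups of 3. Red tails came from the strain MZCS002, female tails from the same strain, yellow tails from the strain GRZ-BELL, and female tails from GRZ-BELL. The labels state that the 3 libraries of a group are biological replicates. The piece of fin taken was the pigmented part, or in females the matching part, and cDNA was primed with oligo-dT. Age, and the sex of the fish with coloured tails, are not given in the labels. Strain and everything else that differs between the stocks cannot be told apart here, and colour and sex cannot be told apart within a strain. The RNA is from whole tissue, so fewer cells of a type and less RNA per cell cannot be told apart either.

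The libraries held 5495553 to 17053983 reads assigned to entries. MZCS002 female replicate 2 stood apart: it had the fewest reads, it detected 16400 entries where the others detected between 17644 and 18667, and it had a mean correlation of 0.847 with its own group against 0.895 to 0.957 elsewhere. Epidermis, the tissue that covers the fin, was well represented. Of 46 listed epidermal symbols 14 were in the table, and all 14 had a mean high enough to be tested. Together they reached 701450 to 1159389 normalized counts in red tails and 928436 to 1765056 in MZCS002 females. They reached 1004963 to 1458278 in yellow tails and 858717 to 1460215 in females of GRZ-BELL. A normalized count is the number of reads divided by the size factor the authors used for that library. The 6 tested muscle markers summed to 32 to 483 normalized counts over the 12 libraries.

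In red tails foxq1a had 2003, 833 and 388 normalized counts, against 323, 160 and 261 in MZCS002 females. Every red tail lay above every MZCS002 female, but the lowest red tail was close to the highest female, and red tail replicate 1 had more than the other red tails together. In yellow tails foxq1a had 158, 64.3 and 93.5 normalized counts, against 1401, 834 and 1837 in GRZ-BELL females. Here the coloured tails were low and the females high, with a wide gap between the groups. The direction within GRZ-BELL was therefore the opposite of that within MZCS002.

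**Figure D1:**
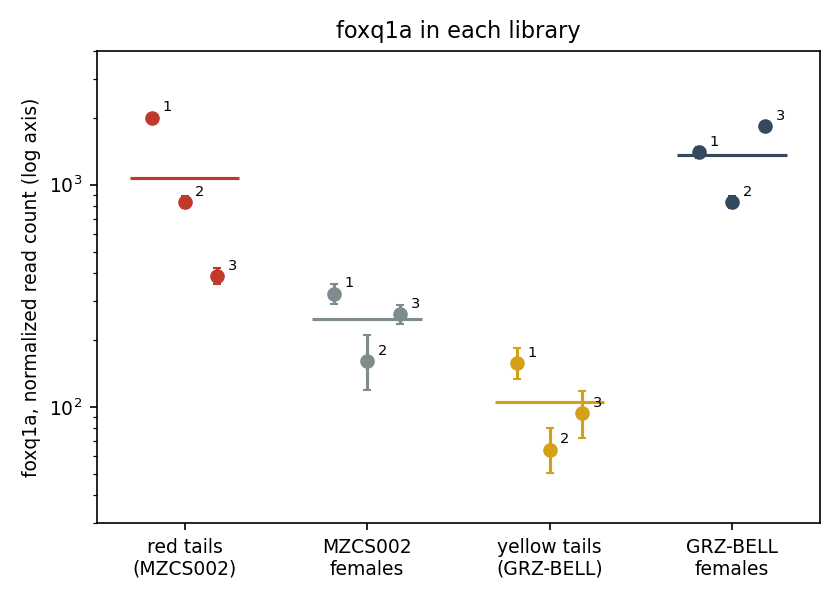
Normalized read count of foxq1a in each library on a log axis, by group, with replicate numbers; horizontal lines are group means and bars are 95% counting intervals. Yellow tails sit lowest, at 64.3 to 158 normalized counts, and GRZ-BELL females sit at 834 to 1837.

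These values rested on unequal numbers of reads. Red tails gave 2326, 1037 and 515 reads of foxq1a and MZCS002 females gave 360, 51 and 384. Yellow tails gave 157, 74 and 68 reads, and GRZ-BELL females gave 1193, 1001 and 2350. An exact Poisson interval, which covers counting error only, put MZCS002 female replicate 2 between 119 and 211 normalized counts and yellow tail replicate 1 between 134 and 184. The spread between replicates was wider than counting error in the well-covered libraries: red tail replicates 1 and 3, with intervals of 1922 to 2086 and of 355 to 423 normalized counts, were far apart.

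By mean level the order was GRZ-BELL females with 1357 ± 503.1 normalized counts, red tails with 1075 ± 834, MZCS002 females with 248 ± 82.3 and yellow tails with 105 ± 47.7 (SD, n = 3 each). The first neighbours in this order, GRZ-BELL females and red tails, did not differ beyond their spread, since their ranges overlapped. Red tails and MZCS002 females were the second pair, and their ranges did not overlap. MZCS002 females and yellow tails touched: the lowest female had 160 and the highest yellow tail 158 normalized counts, and the counting intervals of these libraries overlapped. When every library was scaled to the same total, the lowest MZCS002 female had 122 and the highest yellow tail 155, so these groups overlapped.

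Red tails were the most variable group. Their coefficient of variation was 77.6% and the highest red tail had 5.16 times the level of the lowest, against 33.2% and 2.02 times in MZCS002 females. In yellow tails the coefficient was 45.4% and in GRZ-BELL females 37.1%. On the log2 scale the SD was 1.18 in red tails, 0.52 in MZCS002 females, 0.64 in yellow tails and 0.58 in GRZ-BELL females.

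All differences below are on the scale of log2(normalized count + 1), which slightly understates the change of low genes. The mean of red tails was 4.33 times that of MZCS002 females, a log2 difference of 1.86. Without red tail replicate 1 that difference was 1.25, and without MZCS002 female replicate 2 it was 1.57. Because these groups did not overlap, leaving out a library could not change the direction. The size moved with single red tails, and without red tail replicate 3 the difference was 2.43.

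The mean of yellow tails was 12.9-fold lower than that of GRZ-BELL females, a log2 difference of -3.70, and with each of these 6 libraries left out in turn it stayed between -4.04 and -3.40. Among the 15170 entries with a mean of at least 10 normalized counts, this was the 8th largest decrease. The difference in MZCS002 was the 322nd largest increase in its own comparison. The contrast in GRZ-BELL was therefore the more extreme one for foxq1a.

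Between the coloured tails the mean was 10.2 times higher in red than in yellow, a log2 difference of 3.13, with 2.52 without red tail replicate 1. Between females the mean was 5.47-fold lower in MZCS002 than in GRZ-BELL, a log2 difference of -2.43, with -2.15 without MZCS002 female replicate 2. The groups did not overlap in either comparison, as held for 16.9% of all entries with red above yellow and for 10.8% with MZCS002 females below GRZ-BELL females. These comparisons use the same 12 libraries as those within strains, so they are the same values read another way.

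The tail-minus-female difference in MZCS002 exceeded that in GRZ-BELL by 5.56 on the log2 scale, with 4.95 to 6.13 when single libraries were left out. That was the 13th largest such excess among the 15170 entries. Red tails lay above MZCS002 females without overlap in 12.7% of entries, and yellow tails lay below GRZ-BELL females without overlap in 12.9%. Both held together for 151 entries, 0.995% of those tested, and the reverse pattern held for 106, 0.699%. The pattern of foxq1a was one of a small set of crossed patterns, found in both senses.

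Among those 151 entries foxq1a ranked 3rd by the size of the crossing. Other named entries near the top, picked after their values were seen, were the insulin-like peptide gene insl5a, the cystine transporter gene slc7a11, the urea transporter gene slc14a2, itm2cb, the melanocortin receptor gene mc5ra and the chaperonin-like gene bbs10. Their crossing was 6.97 for insl5a, 5.56 for slc7a11, 4.79 for slc14a2, 3.95 for itm2cb, 3.58 for mc5ra and 3.41 for bbs10 on the log2 scale. The level of slc14a2 was uneven within red tails: it had 96.4, 12.1 and 4.52 normalized counts in red tails, against 0.899, 0 and 1.36 in MZCS002 females. These females lay below the value of 3 reads, which was 2.70, 9.43 and 2.04 normalized counts in their libraries. The size of its crossing therefore depends on the pseudocount and on red tail replicate 1. Its yellow-minus-female difference was -1.25 on the log2 scale. The receptor gene mc5ra had 177, 150 and 166 normalized counts in red tails against 61.1, 28.3 and 101 in MZCS002 females, and it had 16.1, 11.3 and 9.62 in yellow tails and 36.4, 66.6 and 61.8 in GRZ-BELL females.

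**Figure D2:**
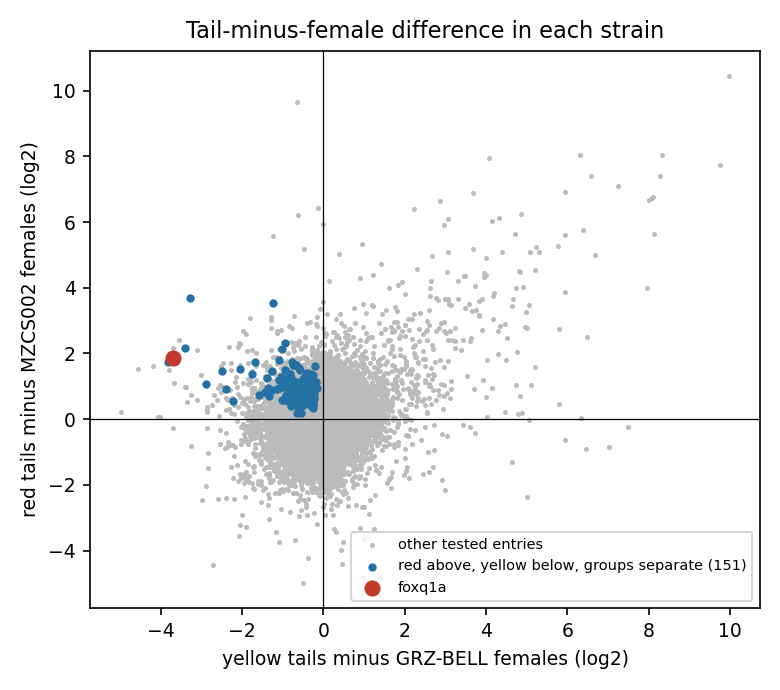
Tail-minus-female log2 difference of each of the 15170 tested entries in GRZ-BELL (horizontal axis) and in MZCS002 (vertical axis). The 151 entries with red above and yellow below their females without overlap are marked; foxq1a sits among them at -3.70 and 1.86.

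Other forkhead genes were then read beside foxq1a. The table held 37 of them, of which 13 passed the filter on low values, 19 had reads but fell below it and 5 had no read. By limma with Benjamini-Hochberg adjustment over all 15170 entries, 1 of the 13 rose in red tails relative to MZCS002 females, where 2.71% of all entries were higher and 1.82% lower. In yellow tails relative to GRZ-BELL females 1 of 13 rose, where 1.49% of all entries were higher and 0.349% lower. Both calls were foxd3.

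The gene foxd3 encodes a regulator of neural crest and pigment cell fate. It had 171, 153 and 251 normalized counts in red tails, against 113, 22.0 and 48.3 in MZCS002 females. In yellow tails it had 427, 544 and 264, against 91.6, 61.6 and 95.4 in GRZ-BELL females. The coloured tails were the higher group in both strains, without overlap, which in GRZ-BELL held for 13.1% of all entries.

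Its log2 difference was 1.89 ± 0.49 in MZCS002 (SE, n = 3 each, limma adjusted p = 0.0477) and 2.26 ± 0.49 in GRZ-BELL (limma adjusted p = 0.0329). The call in MZCS002 was lost when any library other than MZCS002 female replicate 1 was left out, with adjusted p up to 0.128, and under edgeR's quasi-likelihood test, with 0.0698. The call in GRZ-BELL was lost in 6 of the 12 cases with a library left out, those of yellow tail replicates 1 and 2, any GRZ-BELL female and red tail replicate 2, with adjusted p up to 0.168. The difference of the differences, -0.37 ± 0.69, did not pass the test (limma adjusted p = 0.838), and red tails did not pass it against yellow tails either (adjusted p = 0.197).

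In the remaining 3 comparisons limma called none of the 13. At an unadjusted p under 0.05 there were 2 between red and yellow tails, 3 between females and 3 for the difference of differences. DESeq2 called 1, 2 and 1 in the same order, and edgeR called 0 in each. Of all 15170 entries, 3757, 2366 and 2193 had an unadjusted p under 0.05 in these comparisons. DESeq2 called 15.6%, 5.35% and 4.14% of the entries with an adjusted p. In red relative to MZCS002 female tails the values were 3330 entries and 11.6%. In yellow relative to GRZ-BELL female tails they were 1859 entries and 4.71%. These values are the background for the lists below. By limma 3.85% of all entries were higher and 3.58% lower in red than in yellow tails. In MZCS002 relative to GRZ-BELL females 0.817% were higher and 0.923% lower. In the difference of differences 0.0857% were higher and 0.0923% lower. The split depends on scaling: with equal library totals the median of all entries was 0.25 in red tails against MZCS002 females in place of 0.01, -0.23 between females in place of -0.02, and 0.32 in place of 0.01 for the difference of differences. Of the calls 82.8% were then higher in red tails than in MZCS002 females, in place of 59.8%, 64.9% in red than in yellow tails, in place of 51.8%, 32.3% in MZCS002 than in GRZ-BELL females, in place of 47.0%, and 80.0% in the difference of differences, in place of 48.1%. The foxq1a difference was 2.1006 in MZCS002 under that scaling.

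Of the 13, foxi3b, foxo1a and foxd2 had a Pearson correlation above 0.5 with foxq1a over the 12 libraries, at 0.77, 0.63 and 0.57. That is 23.1% of the 13, against 9.62% of all entries compared. These genes were read further because of that correlation, so a pattern shared with foxq1a is a description. Their adjusted p-values do not allow for this pick and are no evidence of a shared pattern. In zebrafish foxi3b directs the skin precursors of ionocytes. It had 37.0, 20.9 and 10.6 normalized counts in red tails, against 21.6, 0 and 25.1 in MZCS002 females, and 2.01, 5.21 and 5.497 in yellow tails, against 71.7, 21.7 and 37.5 in GRZ-BELL females. Yellow tails lay below GRZ-BELL females without overlap, while the groups of MZCS002 overlapped and MZCS002 female replicate 2 had no read. Its log2 difference was 1.34 ± 1.05 in MZCS002 (limma adjusted p = 0.483), and that of -3.01 ± 1.05 in GRZ-BELL did not pass limma's test (adjusted p = 0.229), while DESeq2 on the recovered reads gave an adjusted p of 0.00163. The difference of its differences was 4.35 ± 1.48 (limma adjusted p = 0.215, DESeq2 adjusted p = 0.0238). That its crossing had the same sense as in foxq1a goes with the pick by correlation. The estimates of foxd2 had the same signs, but none of them passed the test. They were 1.62 ± 0.63 in MZCS002 (limma adjusted p = 0.155) and -0.77 ± 0.63 in GRZ-BELL (limma adjusted p = 0.706). Their difference was 2.38 ± 0.89 (limma adjusted p = 0.244, DESeq2 adjusted p = 0.132).

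The gene foxo1a acts downstream of insulin signalling. It had 351, 92.9 and 221 normalized counts in yellow tails, against 551, 424 and 532 in GRZ-BELL females, without overlap. Its log2 difference of -1.36 ± 0.41 missed the threshold (limma adjusted p = 0.143), and in MZCS002 the difference was 0.07 ± 0.41 (limma adjusted p = 0.945).

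**Figure D3:**
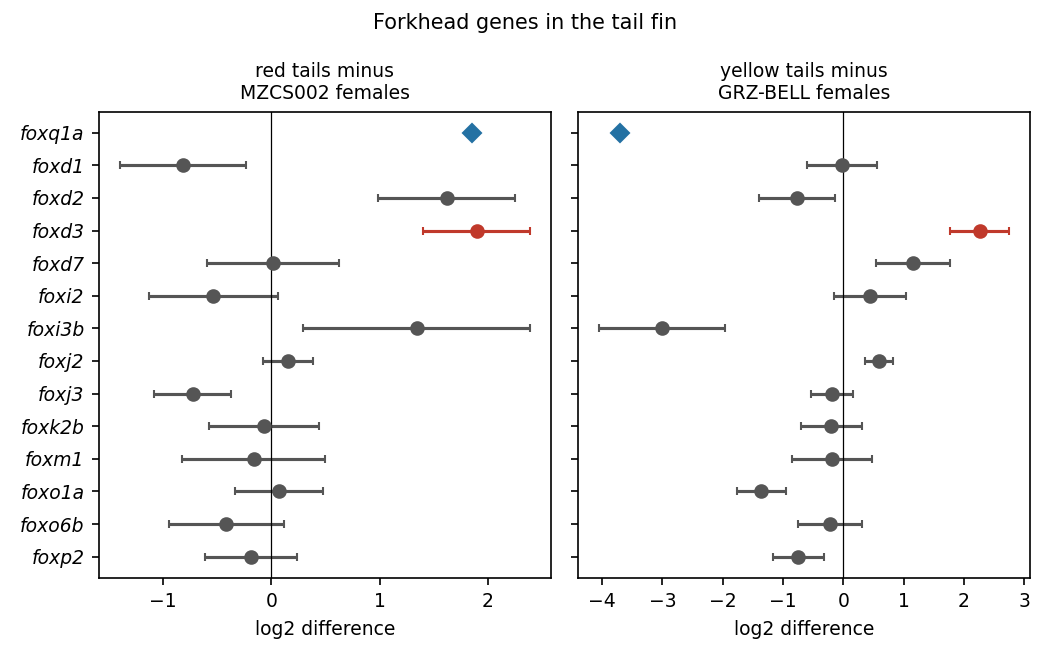
Log2 difference of coloured tails minus females in MZCS002 (left) and GRZ-BELL (right) for the 13 tested forkhead genes with SE bars, and for foxq1a, shown as a diamond with no error bar because it was not tested. Red bars mark foxd3, at 1.89 and 2.26, the gene called in both panels.

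The paralog foxq1b was close to absent. It had 11.2, 5.62 and 2.26 normalized counts in red tails, against 3.59, 3.14 and 2.04 in MZCS002 females. It had 1.00, 0 and 0 in yellow tails, against 0, 3.33 and 2.35 in GRZ-BELL females. With 39 reads over the 12 libraries no difference could be read from it.

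The neighbours of foxq1a on its chromosome, taken by order in the RefSeq table, showed no call of their own. Of the 5 annotated genes on each side, wrnip1, which encodes an ATPase of DNA replication, the interferon regulatory factor gene irf4a and ripk1l passed the filter, and neither limma, edgeR nor DESeq2 called any of them in any of the 5 comparisons. For ripk1l the yellow-minus-female difference was 0.06 ± 0.31 on the log2 scale (limma adjusted p = 0.967), with 202, 182 and 209 normalized counts in yellow tails and 155, 235 and 185 in GRZ-BELL females. For irf4a the difference was 0.26 ± 0.56 (limma adjusted p = 0.921), and for wrnip1 it was 0.74 ± 0.48 (limma adjusted p = 0.605). On the side of the forkhead cluster the adjacent gene, foxf2a, matched no entry, so its level is not known here. Beyond it, foxc1a had 8.61, 8.03 and 20.4 normalized counts in red tails against 2.70, 3.14 and 19.7 in MZCS002 females. In yellow tails foxc1a had 13.0, 6.08 and 10.99, against 14.1, 2.50 and 9.38 in GRZ-BELL females. It was under the filter, as were mylk4a and LOC107383903, and 4 of the 10 neighbours matched no entry.

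Genes that forkhead factors work with or act on were then read from fixed lists, which leave out foxq1a. Of the Groucho and other corepressors, 6 were tested. The Groucho-type gene tle2a was the only 1 of the 6 called in red relative to yellow tails, where 3.85% of all entries were higher and 3.58% lower. It rose, with 554, 549 and 505.9 normalized counts in red and 295, 237 and 298 in yellow. Its log2 difference was 0.96 ± 0.22 (limma adjusted p = 0.019), and the call was lost without replicate 1 or 2 of either group, with adjusted p up to 0.078. In the other comparisons limma and edgeR called none of the 6, of which 1 had an unadjusted p under 0.05 in red relative to MZCS002 female tails, 2 in yellow relative to GRZ-BELL female tails, 2 between females and 0 for the difference of differences, and DESeq2 called 1 between females.

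Of 86 listed symbols of Wnt signalling 42 were in the table, and 34 were tested. In red relative to MZCS002 female tails 1 of the 34 rose and none fell, near the 2.71% of all entries that were higher, and the median log2 difference was -0.09 against 0.01 over all entries. The riser was dkk3a, of the dickkopf family of secreted proteins, with 68.9, 107 and 36.2 normalized counts in red tails, against 13.5, 9.43 and 9.52 in MZCS002 females. Its log2 difference was 2.49 ± 0.44 (limma adjusted p = 0.00876), and without red tail replicate 2 its adjusted p was 0.0595. Without MZCS002 female replicate 2 the list had 1 higher and 1 lower.

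For yellow relative to GRZ-BELL female tails limma called none of the 34, with 7 at an unadjusted p under 0.05, 0 by edgeR and 2 by DESeq2. Of all entries 3.85% were higher and 3.58% lower in red than in yellow tails, while none of the 34 rose and 2 fell in red. These were the Wnt receptor gene fzd3b, with 23.2, 25.7 and 12.8 normalized counts in red and 134, 110 and 110 in yellow tails (log2 difference -2.52 ± 0.56, limma adjusted p = 0.0174), and the kinase gene gsk3ba (-0.96 ± 0.25, limma adjusted p = 0.0347). Between females fzd3b was lower in MZCS002 (-2.66 ± 0.56, limma adjusted p = 0.0298), as was the ligand gene wnt9b (-1.87 ± 0.38, limma adjusted p = 0.0246). Between red and yellow tails the call of fzd3b was lost without replicate 1 or 3 of either group. That of gsk3ba was lost without any red tail, yellow tail replicate 1 or 2, or GRZ-BELL female replicate 2. Between females fzd3b lost its call without any GRZ-BELL female or yellow tail replicate 1, and wnt9b without GRZ-BELL female replicate 1 or 2, with adjusted p up to 0.153 over these cases.

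TGF-beta and BMP signalling had 31 genes in the table and 26 tested. In red relative to MZCS002 female tails 2 of the 26 rose and none fell, where 2.71% of all entries were higher and 1.82% lower, and both encode inhibitors of helix-loop-helix factors that BMP signals induce. The gene id2a had 2024, 2682 and 2670 normalized counts in red tails, against 594, 786 and 1202 in MZCS002 females (log2 difference 1.56 ± 0.32, limma adjusted p = 0.0176). The gene id3 had 8570, 4202 and 2046, against 1133, 877 and 1168 (2.00 ± 0.43, limma adjusted p = 0.022).

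Both id genes had every red tail above every female, and id3 was highest in red tail replicate 1, as was foxq1a. Without red tail replicate 2 neither call was kept, with adjusted p up to 0.0966, and id3 also lost it without red tail replicate 1. Without MZCS002 female replicate 2 the list had 2 higher and 2 lower in that comparison, and without red tail replicate 3 it had 2 higher and 1 lower. In yellow relative to GRZ-BELL female tails limma called none of the 26, with 1 at an unadjusted p under 0.05, 0 by edgeR and 1 by DESeq2. Against yellow tails id2a rose in red tails (2.44 ± 0.32, limma adjusted p = 0.000944), while the coreceptor gene tgfbr3 (-1.48 ± 0.23, limma adjusted p = 0.00283) and the inhibitory gene smad6b (-1.30 ± 0.27, limma adjusted p = 0.0134) fell. Of the 26, 1 was thus higher and 2 lower, where 3.85% of all entries were higher and 3.58% lower. The smad6b call was lost without red tail replicate 1 or yellow tail replicate 1, with adjusted p up to 0.0731.

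Between the female groups id2a was higher in MZCS002 (1.48 ± 0.32, limma adjusted p = 0.0327) and tgfbr3 lower (-1.16 ± 0.23, limma adjusted p = 0.0221), so both differed between the strains in the same direction as between the coloured tails. No other of the 26 was called there, where 0.817% of all entries were higher and 0.923% lower. The id2a call was lost without any GRZ-BELL female, MZCS002 female replicate 3, red tail replicate 2 or yellow tail replicate 1. The tgfbr3 call was lost without MZCS002 female replicate 1 or GRZ-BELL female replicate 1 or 2, with adjusted p up to 0.134 over these cases.

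Genes of the epithelial to mesenchymal transition were called in none of the 5 comparisons by limma on all 12 libraries, with all 20 in the table tested. Without MZCS002 female replicate 2 limma called 1 lower in red relative to MZCS002 female tails, 1 higher and 1 lower in yellow relative to GRZ-BELL female tails and 1 higher in red relative to yellow tails, and without red tail replicate 3 it called 1 lower in the first of these. In red relative to MZCS002 female tails 3 had an unadjusted p under 0.05, edgeR called 0 and DESeq2 called 1. In yellow relative to GRZ-BELL female tails there were 2, 0 and 0. The epithelial adhesion gene epcam had 56342, 21354 and 19540 normalized counts in red tails, against 32146, 12493 and 21582 in MZCS002 females, and the groups overlapped.

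Its log2 difference was 0.48 ± 0.45 in MZCS002 (limma adjusted p = 0.569) and -0.48 ± 0.45 in GRZ-BELL (limma adjusted p = 0.752). The protease inhibitor gene spint2 differed by 0.03 ± 0.31 and -0.17 ± 0.31 in these comparisons, with adjusted p of 0.971 and 0.902 by limma. Next by mean level, mmp14b, which encodes a membrane-anchored matrix protease, had 3340, 4284 and 3224 normalized counts in red tails against 2298, 6449 and 1449 in MZCS002 females.

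The aryl hydrocarbon receptor list had 17 symbols, of which 9 were in the table and 7 were tested, and limma called 0 in each comparison. At an unadjusted p under 0.05 there was 1 in red relative to MZCS002 female tails and 2 in yellow relative to GRZ-BELL female tails, edgeR called 0 in both, and DESeq2 called 1 in each. In yellow relative to GRZ-BELL female tails limma called 1 lower without red tail replicate 1 or yellow tail replicate 3, and in red relative to yellow tails it called 1 lower without MZCS002 female replicate 2 or 3. Of the 7, 2 had a correlation above 0.5 with foxq1a, and the median correlation was -0.02. The median yellow-minus-female difference of the 7 was 0.07, against -0.02 over all entries. The receptor target gene tiparp, picked after its values were seen, had a correlation of 0.85 with foxq1a. It had 643, 463 and 448 normalized counts in yellow tails, against 1439, 893 and 1081 in GRZ-BELL females, without overlap, as held for 12.9% of all entries.

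The yellow-minus-female difference of tiparp was -1.13 ± 0.32 on the log2 scale (limma adjusted p = 0.128, DESeq2 adjusted p = 0.0373), and the red-minus-female difference was 0.18 ± 0.32 (limma adjusted p = 0.787). These p-values do not allow for the pick of tiparp after its values were seen. The genes of this list with the highest means, nqo1 and nfe2l2a of the oxidative stress response, had 2437, 2557 and 2230, and 3092, 2447 and 2618 normalized counts in yellow tails. In GRZ-BELL females nqo1 had 1368, 1510 and 2726 and nfe2l2a had 2457, 2719 and 2275, so the ranges overlapped for both genes.

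Mucous cell genes and appendage genes were read because of the roles of mouse Foxq1 in the stomach and hair. Of 6 tested mucous cell genes, agr2, whose product folds mucins, was higher in MZCS002 than in GRZ-BELL females (2.33 ± 0.52, limma adjusted p = 0.0418), a call kept only without MZCS002 female replicate 2 or yellow tail replicate 2 or 3. It was the only 1 of the 6 called there, where 0.817% of all entries were higher. The median yellow-minus-female difference of the 6 was -0.08. Of 13 appendage genes, the distal fin gene hoxa13b rose in red relative to MZCS002 female tails (1.59 ± 0.39, limma adjusted p = 0.0398), and msx1a rose in red relative to yellow tails (1.01 ± 0.26, limma adjusted p = 0.0378). Each was the only 1 of the 13 called in its comparison, where 2.71% and 3.85% of all entries were higher. With single libraries left out, the hoxa13b call was kept only without red tail replicate 3 or MZCS002 female replicate 1 or 2. The msx1a call was lost without red tail replicate 1 or 2, any yellow tail or GRZ-BELL female replicate 3, and adjusted p reached 0.161 over these cases.

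Pigment cell genes differed between coloured and female tails in both strains, and all but 1 of the called genes were higher in coloured tails. Over all entries 2.71% were higher and 1.82% lower in red relative to MZCS002 female tails, with a median log2 difference of 0.01. In yellow relative to GRZ-BELL female tails 1.49% were higher and 0.349% lower, with a median of -0.02. Of the 15 tested melanophore genes, which serve black pigment cells, 9 rose in the first comparison and 8 in the second, with median log2 differences of 2.14 and 2.58. Of the 12 xanthophore genes, which serve yellow to red pigment cells, 6 and 7 rose. Of the 14 iridophore genes, which serve reflective cells, foxd3 among them, 8 rose in each comparison and 1 fell in yellow tails. These lists hold genes that earlier results of the same libraries had already shown, so they are not independent evidence of a direction.

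Over the 12 libraries together the level of foxq1a did not follow these lists. None of the 15 melanophore genes and none of the 12 xanthophore genes had a correlation above 0.5 with foxq1a, and 1 of the 14 iridophore genes had one, against 9.62% of all entries compared. The median correlations of these lists were -0.31, -0.21 and -0.31. Low values go with the picks, since foxq1a was low in yellow tails and the lists were known to be high there. Within MZCS002 both were higher in red tails, by 1.86 for foxq1a and a median of 2.14 for the melanophore genes. The iridophore gene above 0.5 was the endothelin receptor gene ednrbb, at 0.68. It was the iridophore gene that fell in yellow relative to GRZ-BELL female tails (-4.01 ± 0.81, limma adjusted p = 0.022), a call lost without GRZ-BELL female replicate 1 or 3 or yellow tail replicate 1 or 2, with adjusted p up to 0.111. A fall there goes with its correlation with foxq1a, so it is no separate evidence of a shared pattern.

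Lists of other cell types and states were read in the same way. Limma called, in red relative to MZCS002 female tails, where 2.71% of all entries were higher and 1.82% lower, 0 of 14 for epidermis, 0 of 7 for blood, 0 of 12 for vessels and 0 of 28 for the cell cycle. It called 2 of 22 fin ray bone and fibroblast genes higher, 1 of 16 immune genes, csf1ra, higher, and 1 of 8 sex steroid genes, the androgen receptor gene ar, higher. It called 1 of 6 muscle genes, ckmb, lower and 1 of 5 nerve and glia genes, elavl4, lower. Its calls in yellow relative to GRZ-BELL female tails, where 1.49% of all entries were higher and 0.349% lower, were 2 of 7 blood genes higher, csf1ra higher and 1 of 28 cell cycle genes lower, and 0 for the other lists of this group. The immune list shares csf1ra with the xanthophore list, where it was called as well. The calls of csf1ra were kept with any library left out. That of ckmb was lost without red tail replicate 1 or 3 or MZCS002 female replicate 3. That of elavl4 was kept only without red tail replicate 3, MZCS002 female replicate 1, yellow tail replicate 2 or GRZ-BELL female replicate 1 or 2, and that of ar only without MZCS002 female replicate 2, yellow tail replicate 2 or GRZ-BELL female replicate 1. The calls in fin ray genes were and1 and and2, which encode the actinotrichia proteins of the fin fold, and and2 rose by 2.67 ± 0.64 (limma adjusted p = 0.0373) in red relative to MZCS002 female tails. That call was lost without any red tail, MZCS002 female replicate 3, yellow tail replicate 1 or 3 or GRZ-BELL female replicate 1, with adjusted p up to 0.151. Without MZCS002 female replicate 2, in red relative to MZCS002 female tails, 3 fin ray genes and 1 blood gene were higher, 3 muscle genes were lower, 1 immune gene was higher and 1 lower, and no nerve gene was called. The counts for epidermis, vessels and the cell cycle were 0 there too, and 1 sex steroid gene was higher. With all libraries blood, vessel and cell cycle genes each had 1 with an unadjusted p under 0.05 in that comparison, DESeq2 called 1 blood gene, and edgeR called none of these. Of the lists at 0 in yellow tails, fin ray genes had 3 at an unadjusted p under 0.05, vessel and sex steroid genes 2 each and muscle and nerve genes 1 each, of which edgeR called 0 and DESeq2 called 1 fin ray and 1 vessel gene.

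For epidermis 1 gene had an unadjusted p under 0.05 in red relative to MZCS002 female tails and 0 in yellow relative to GRZ-BELL female tails, and neither edgeR nor DESeq2 called any in these comparisons. Of the 14 epidermal genes, 3 had a correlation above 0.5 with foxq1a, and their median correlation was 0.14. Their part in the level of foxq1a was not tested.

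The cell cycle gene that fell in yellow tails was cdkn1d, which encodes a cyclin-dependent kinase inhibitor of the Cip/Kip type and which earlier results of these data had given beside foxq1a. It had 269, 252 and 596 normalized counts in yellow tails, against 5619, 4228 and 3660 in GRZ-BELL females (-3.69 ± 0.62, limma adjusted p = 0.0063). In red tails it had 5185, 3273 and 1586, against 3676, 1455 and 505.7 in MZCS002 females, and these groups overlapped. So cdkn1d shared the low yellow tails of foxq1a and the order of the red tails, while its order within each other group differed. In GRZ-BELL females replicate 3 was the lowest for cdkn1d and the highest for foxq1a. Since cdkn1d was followed because of those earlier results, its low yellow tails go with that pick. Its adjusted p-values, here and below, do not allow for the pick and are no evidence of a shared pattern.

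Red tails had more cdkn1d than yellow tails (3.12 ± 0.62, limma adjusted p = 0.0111), and 9 further cell cycle genes rose with it, 10 of 28 where 3.85% of all entries were higher, among them the mitotic kinase genes cdk1 (3.40 ± 0.57, limma adjusted p = 0.00471) and plk1 (2.13 ± 0.52, limma adjusted p = 0.0288). The cdkn1d call was lost without red tail replicate 1 or yellow tail replicate 1, with adjusted p up to 0.0579, and that of plk1 without red tail replicate 1 or 2 or yellow tail replicate 1 or 3, with adjusted p up to 0.115. The cdk1 call was kept in all 12. Of the 28, edgeR called 6 and DESeq2 called 13. The number higher by limma was 2 without red tail replicate 1 or 2 or yellow tail replicate 1 or 3, 5 without red tail replicate 3, and 12, with 1 lower, without MZCS002 female replicate 2. Between females the 28 genes leaned the same way. Their median log2 difference was 1.20 in MZCS002 relative to GRZ-BELL females and 1.09 in red relative to yellow tails. Over all entries these medians were -0.02 and -0.01. At an unadjusted p under 0.05 there were 16 in each of these comparisons. Between females limma called 1 higher, cdc20, where 0.817% of all entries were higher, edgeR called 2 and DESeq2 called 8. The median correlation of the 28 cell cycle genes with foxq1a was 0.09.

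To find the genes most like foxq1a, Pearson's r of log2(normalized count + 1) was computed over the 12 libraries for 8700 entries with a symbol. The values share their libraries and size factors and carry no p. The likeness was chosen on foxq1a's own values, so the patterns of the genes named here are descriptions. The highest was rgl1, which encodes an activator of the small GTPase Ral, with r = 0.96 and a Spearman rho of 0.99.

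The gene rgl1 had 696, 321 and 211 normalized counts in red tails, against 245, 173 and 199 in MZCS002 females. It had 167, 150 and 169 in yellow tails, against 444, 399 and 467 in GRZ-BELL females. Its order of libraries nearly matched that of foxq1a, over a much narrower range.

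Next was kcnk1b, a potassium channel gene, with r = 0.93. It had 660, 256 and 278 normalized counts in red tails against 259, 113 and 254 in females of MZCS002. It had 186, 133 and 133 in yellow tails against 409, 345 and 478 in GRZ-BELL females, so yellow tails and GRZ-BELL females were separate while the MZCS002 groups overlapped. After these came ism1, encoding a secreted isthmin, at 0.90, meak7 at 0.89, si:dkey-79d12.5 at 0.89, fras1 at 0.88, the semaphorin gene sema5a at 0.87, the bradykinin receptor gene bdkrb2 at 0.87, nr4a1 at 0.87, tnfaip3 at 0.87 and cdkn1d at 0.87, and 1 further entry at 0.88.

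The gene fras1 encodes a protein of the basement membrane under the epidermis. It had 187, 174 and 174 normalized counts in red tails against 190, 132 and 139 in MZCS002 females, with 78.3, 59.0 and 57.7 in yellow tails and 201, 192 and 329 in GRZ-BELL females. Yellow tails were the low group here, and the others lay near each other.

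These 12 genes were picked by r over the same libraries, so their values within groups are part of that likeness and add no evidence. With the group means removed, their r with foxq1a ran from 0.41 for cdkn1d to 0.90 for si:dkey-79d12.5, and it was 0.88 for rgl1. Without the 2 libraries farthest from the median of foxq1a, red tail replicate 1 and GRZ-BELL female replicate 3, their r ran from 0.81 to 0.95. None of the 12 was among the 151 entries with a full crossing, and in each of them red tails and MZCS002 females overlapped.

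The 6 named genes most opposite to foxq1a were fam210ab at -0.94, si:dkey-251i10.3 at -0.93, the RNA polymerase III subunit gene polr3e at -0.92, the RNA-binding factor genes fubp3 at -0.91 and larp4ab at -0.91, and pygo2, a cofactor of Wnt signalling, at -0.90. The gene polr3e had 257, 295 and 397 normalized counts in red tails against 430, 371 and 380 in MZCS002 females. It had 456, 574 and 422 in yellow tails against 209, 286 and 251 in GRZ-BELL females, and its 2 highest libraries were yellow tails.

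**Figure D4:**
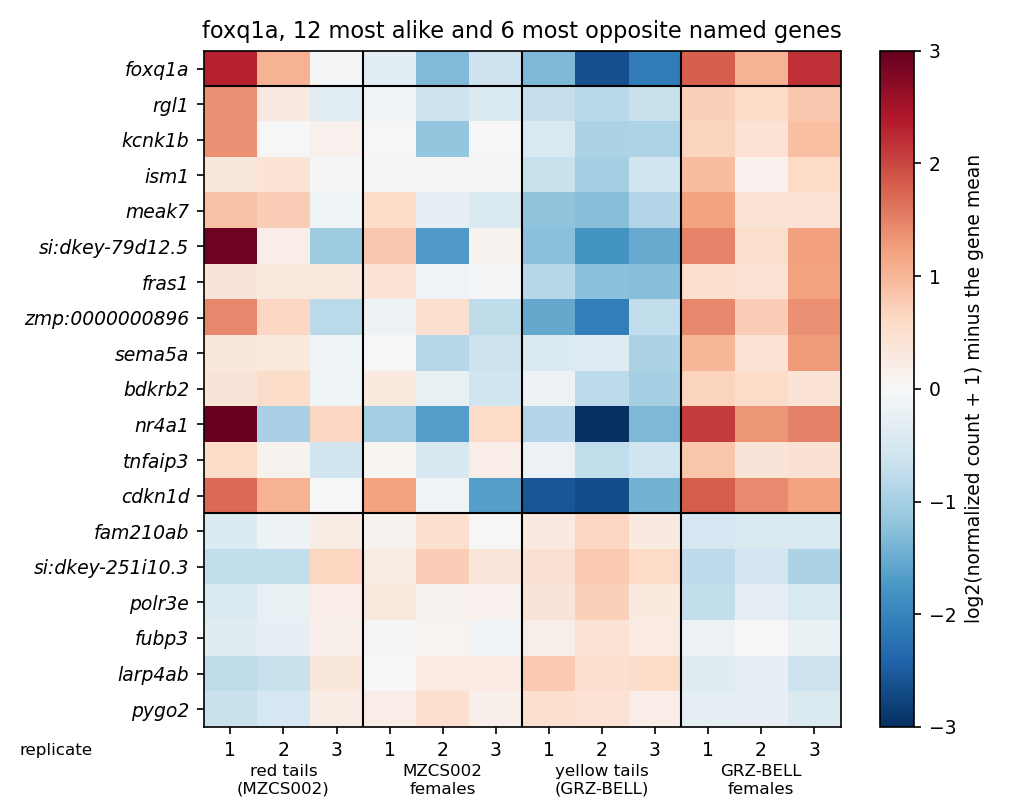
Log2(normalized count + 1) minus the gene's mean over the 12 libraries for foxq1a, the 12 named genes most like it and the 6 most opposite, by group and replicate. Red cells are above and blue cells below the gene's mean; the 3 yellow tails are blue in the upper block and red in the lower one.

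Among the genes most like foxq1a were nr4a1, an orphan nuclear receptor gene, and tnfaip3, which encodes an inhibitor of NF-kappaB signalling. Both belong to the immediate early genes, which cells switch on quickly after a stimulus, handling of tissue included. A list of 50 symbols of such genes was drawn up once these genes had been seen. Of the list 31 were in the table, and 30 were tested. Of the 30, 18 had a correlation above 0.5 with foxq1a, 60.0% of the list against 9.62% of all entries, and the median correlation was 0.56. That share includes nr4a1, tnfaip3, fosb and fosl1a, whose likeness to foxq1a had been seen beforehand. Without these genes 14 of 26 had a correlation above 0.5, and the median was 0.52. Since the list was prompted by the likeness, these shares are a description.

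The AP-1 gene fosb had 6326, 263 and 191 normalized counts in red tails, against 527, 62.9 and 395 in MZCS002 females. It had 257, 157 and 135 in yellow tails, against 2387, 3128 and 9809 in GRZ-BELL females. Red tail replicate 1 and the 3 GRZ-BELL females stood far above the other 8 libraries. The zinc finger gene egr1 had 1996, 136 and 131 in red tails against 134, 214 and 366 in MZCS002 females, with 141, 128 and 133 in yellow tails and 479, 484 and 386 in GRZ-BELL females, and the same 4 libraries were the highest.

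The median log2 deviation of the 30 genes from their means was 1.04, -0.45 and -0.46 in red tails, against -0.10, -1.48 and 0.05 in MZCS002 females. It was -0.07, -0.78 and -0.12 in yellow tails, against 0.81, 0.40 and 0.52 in GRZ-BELL females. This median had a Pearson correlation of 0.72 and a Spearman rho of 0.73 with foxq1a over the 12 libraries, and 0.79 with the group means removed. Without red tail replicate 1 it was 0.65, and without the 2 libraries farthest from the median of foxq1a it was 0.59.

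With nr4a1, tnfaip3, fosb and fosl1a left out, which had been seen beforehand, 26 genes remained and the correlations were 0.66 over all libraries, 0.81 with the group means removed, 0.56 without red tail replicate 1 and 0.48 without the 2 farthest libraries. Yellow tails lay below GRZ-BELL females without overlap for 14 of the 30, where 12.9% of all entries did, and red tails lay above MZCS002 females for 2, where 12.7% did. Overlap aside, the red-minus-female estimate was above 0 for 25 of the 30 and below 0 for 5, with a median of 0.57 against 0.01 over all entries. The yellow-minus-female estimate was below 0 for 23 and above 0 for 7, with a median of -0.91 against -0.02. MZCS002 females lay below GRZ-BELL females without overlap for 17, where 10.8% did. Red tail replicates 2 and 3, with median deviations of -0.45 and -0.46 over the 30 genes, had 833 and 388 normalized counts of foxq1a. How much of the foxq1a pattern moves with these genes was not tested.

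By limma 1 of the 30 rose in red relative to MZCS002 female tails, where 2.71% of all entries did, the phosphatase gene dusp2 with 341, 349 and 276 against 17.97, 15.7 and 4.76 normalized counts (4.72 ± 0.43, limma adjusted p = 7.47e-05). Its correlation with foxq1a was 0.16. In yellow relative to GRZ-BELL female tails 1 fell, where 0.349% of all entries did, the cytokine signalling inhibitor gene socs3b with 178, 202 and 143 against 581, 764 and 632 (-1.92 ± 0.44, limma adjusted p = 0.0457), a call lost without any yellow tail or GRZ-BELL female, MZCS002 female replicate 1 or red tail replicate 2, with adjusted p up to 0.171. Without MZCS002 female replicate 2 the number that fell in yellow tails was 4, and without red tail replicate 1 it was 6. At an unadjusted p under 0.05 there were 5 of the 30 in the red and 11 in the yellow comparison. There edgeR called 1 and 2, and DESeq2 called 4 and 8. For the difference of differences limma called 0, edgeR called 1 and DESeq2 called 8, and 11 had an unadjusted p under 0.05. Its median was 1.31.

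**Figure D5:**
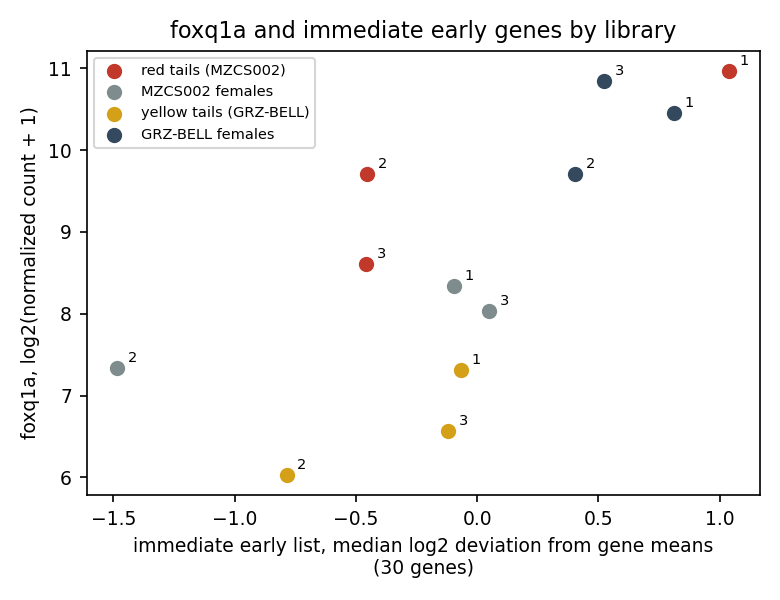
Log2(normalized count + 1) of foxq1a against the median log2 deviation of 30 immediate early genes in each of the 12 libraries, with replicate numbers. Red tail replicate 1, at 1.04, and the GRZ-BELL females, at 0.40 to 0.81, lie at the upper right; red tail replicates 2 and 3 lie at -0.45 and -0.46.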

How the data were processed

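The authors deposited 1 table of 20788 entries by 12 libraries, used as signal values: read counts divided by size factors, per the column values. Trimmomatic, STAR, featureCounts and DESeq2 are named in the submitters' processing notes. Versions, genome and annotation, strandedness and read filters were not given in the sources used here. Dividing by the value of 1 read gave whole reads within 0.01 read for 100% of values in every library. RefSeq matched 14145 entries (68.0%), 10617 with a symbol, and 534 entries had no read.

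Entries with a mean of at least 10 normalized counts were fitted as log2(value + 1) with limma 3.58.1 (trended empirical Bayes, 12 libraries, group means, R 4.3.3), and p-values were adjusted over all 15170 entries with a threshold of 0.05. edgeR 4.0.16 and DESeq2 1.42.0 on the recovered reads, other pseudocounts, filters and scalings, a replicate block and each library left out were the alternatives. The whole-table tests were tested on simulated data with known changes. For each comparison 66 or 67 entries per size of change were altered, in a single group. All other entries had equal group means, so recovery in the real data may differ. In the simulation the tests recovered 2.99% to 5.97% of 2-fold changes over the comparisons. Of 4-fold changes 67.2% to 79.1% were recovered between pairs of groups, and 26.9% for the difference of differences. Of the calls 5.19% to 8.73% were false. A comparison without a call can therefore hold real changes of these sizes. Figures used matplotlib 3.10.9.

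The gene, lists and tests were chosen with earlier results of these data known. The immediate early list was added after seeing the genes most like foxq1a. Genes named are foxq1a and its paralog, 5 neighbours on each side, called forkhead genes, up to 4 called members per list and comparison, the 3 highest of lists without a call, cdkn1d, and the 12 most like and 6 most opposite to foxq1a; other names were picked after their values were seen. Replicate numbers were not used to pair the libraries, except in the replicate block. No sequence of foxq1a was used here.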

Additional observations from a re-analysis of the deposited data

Results flagged for a closer look

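The tail-minus-female difference of foxq1a in MZCS002 exceeded that in GRZ-BELL by 5.56 on the log2 scale, because every red tail lay above every MZCS002 female while every yellow tail lay below every GRZ-BELL female. This difference between the strains was not tested, since the gene was picked for it.

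The xanthophore gene pax3a, which encodes a pigment lineage factor, also differed between the strains. It had 1028, 956 and 890 normalized counts in red tails against 0, 0 and 0.68 in MZCS002 females, and 0, 0 and 2.75 in yellow tails against 7.05, 0 and 0.782 in GRZ-BELL females. The difference of its tail-minus-female differences was 10.3 on the log2 scale (SE 1.14, limma adjusted p = 0.00478), a fitted value that depends on the pseudocount, as 3 of the groups are at or near 0. With each library left out in turn its adjusted p ran from 0.00354 to 0.0357.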

How the results depend on the processing

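No difference of foxq1a changed direction under another pseudocount or scaling. With a library left out a direction could not change, since the compared groups did not overlap. The differences then ran from 1.25 to 2.43 for red tails against MZCS002 females, -4.04 to -3.40 for yellow tails against GRZ-BELL females, 2.52 to 3.70 for red against yellow tails, -2.75 to -2.15 between females and 4.95 to 6.13 for the difference of differences.

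The share of entries with an adjusted p that were called in red tails against MZCS002 females was 4.53%, and it was 0.778% with only the groups compared, 2.29% with a replicate block, 11.6% by DESeq2 and 1.13% to 7.69% with single libraries left out. In yellow tails against GRZ-BELL females it was 1.84%, and 3.9% with only the groups compared, 4.71% by DESeq2 and 1.0% to 3.51% with libraries left out. In red against yellow tails it was 7.43%, and 11.6%, 15.6% and 2.25% to 17.2% under the same settings. Between females it was 1.74%, and 1.17% with a mean of at least 50 (145 entries in place of 264), 0.481% with only the groups compared, 5.35% by DESeq2 and 0.732% to 2.36% with libraries left out. For the difference of differences it was 0.178%, and 0.105% with a pseudocount of 0.5, 0.323% with 5, 0.105% with a mean of at least 50, 0.0923% with the replicate block, 4.14% by DESeq2 and 0.0461% to 0.883% with libraries left out. The highest of each of these ranges came without MZCS002 female replicate 2; the cause was not tested.

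Of the forkhead genes other than foxq1a, 1 was called in red tails against MZCS002 females, and 0 with no filter, only the groups compared, the replicate block, no intensity trend or edgeR, and 0 to 1 with libraries left out. In yellow tails against GRZ-BELL females 1 was called, and 0 with equal library totals, 2 with quantile normalization, only the groups compared or DESeq2, and 0 to 2 with libraries left out. In red against yellow tails 0 were called, and 1 with no filter, only the groups compared or DESeq2, and 0 to 2 with libraries left out. Between females 0 were called, and 1 with the replicate block, 2 by DESeq2 and 0 to 1 with libraries left out. For the difference of differences 0 were called, and 1 by DESeq2 and 0 with libraries left out.

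The correlations of same-numbered libraries, as deviations from their group means, ran from -0.31 to 0.17. With 3 libraries a group these values are too few to show whether the numbers pair the libraries. Why calls were lost under the block was not tested. Of 32 calls of the genes followed by name, 9 were kept under every setting tried, and none reversed. Of the 12 genes most like foxq1a, 6 were shared with Spearman's rho, 11 with a mean of at least 50, and 5 to 11 with single libraries left out. The 51 reads of MZCS002 female replicate 2 and the 68 to 157 reads of the yellow tails limit foxq1a's own precision.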
